A study of Mus musculus with 20 samples.

Results

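The first day after a pulse of 4-hydroxytamoxifen (4-HT) was examined by comparing arrays at 24 h post 4-HT (pHT) with arrays at 0 h in 4 lines of mouse embryo fibroblasts (MEFs), each line's 24 h array being paired with its own 0 h array. These were 8 of the 20 arrays of the series. The other 12 arrays, at 48, 72 and 96 h pHT, served to show where a level went afterwards. RNA was measured on Affymetrix whole-transcript arrays, with 1 array for each line and time.

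The lines were primary Ubf fl/fl MEFs, primary Ubf wt/wt MEFs and, of each genotype, MEFs immortalized by the SV40 T antigens (iMEFs). All had been derived from embryos at E14.5 and all carried ER-Cre+/+, so the control lines had the recombinase too. Cells were plated for 18 h in medium with 10% fetal bovine serum, given 50 nM 4-HT for 4 h and returned to fresh medium without it. The labels do not say whether the 0 h cells were taken before the pulse or at its end, so the exact hours behind the comparison are unknown. No 24 h array came from cells left without 4-HT. What the drug, nuclear Cre, the fresh medium and the longer culture each contribute to a difference between 24 h and 0 h cannot be told apart.

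ER-Cre is a Cre recombinase fused to a ligand-binding domain of the oestrogen receptor, which is held in the cytoplasm until 4-HT binds it and it enters the nucleus. There it recombines loxP sites, here flanking exons of Ubf, the gene of the RNA polymerase I factor UBF, and it can also cut related sequences elsewhere in the genome. Fibroblasts given fresh serum are known for waves of growth-related and later cell cycle genes, and stressed or damaged fibroblasts for chemokines, interferon-stimulated genes and targets of p53. SV40 large T antigen binds p53 and the Rb proteins and is known to disable both pathways. How far they were disabled in these iMEFs was not tested.

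Values are levels on the log2 scale, as RMA gives them, and a change is the level at 24 h minus the level at 0 h, so that 1 means a doubling. Because 4 lines stand in for replicates, an error rests on the spread between lines, and the number of arrays limits the precision. An exact sign-flip test over 4 pairs cannot go below p = 0.125, so single genes were tested with limma paired by line, and the Benjamini-Hochberg adjustment was made over all 14848 genes kept. Each standard error (SE) is the one limma gives, in which a gene's own spread is drawn towards a spread common to all genes. The fibroblast label was checked against 15 markers. All 15 lay over the low-value filter on at least 2 of the 8 arrays and 13 did so on all 8, with mean levels per array of 10.00 to 11.76. Of 19 macrophage markers 17 passed on at least 2 arrays and 7 on all 8, with mean levels per array of 6.10 to 9.24. The complement genes C1qa, C1qb and C1qc were among the 17, whereas Aif1 and Cd163 passed on 0. At 0 h C1qb stood at 11.70 and 11.54 in the fl/fl and wt/wt MEFs and at 5.99 and 6.27 in the fl/fl and wt/wt iMEFs.

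The chemokine genes Ccl2, Ccl7 and Cxcl10, the p53 target Mdm2 and 7 of 36 interferon-stimulated genes were higher at 24 h pHT in each of the 4 lines, and 20 of 33 genes of the integrated stress response, Trib3 among them, were lower in each. None of these shared changes passed the test. In limma paired by line 0 genes had an adjusted p under 0.05 (0% of those tested), the lowest adjusted p being 0.369. At an unadjusted p under 0.05 there were 1890 genes (12.7%), of which 753 were higher (5.07%) and 1137 lower (7.66%), where an even spread of p-values would give 742.4. In all, 1062 genes were higher in each of the 4 lines (7.15%) and 2258 were lower in each (15.2%). Few of them moved far in every line. A change of at least 0.5 in each line was found for 1 gene in the upward direction, Ccl2 (0.00673%), and for 2 in the downward direction, Trib3 and the microRNA gene Mir382 (0.0135%). At 0.3 in each line the counts were 10 (0.0673%) and 17 (0.114%).

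The genes described next are the 12 with the largest smallest-line increase and the 12 with the largest smallest-line decrease. They were picked for having 1 sign in all lines, so that agreement of the lines is no finding for them, and all 24 missed the threshold, with adjusted p from 0.369 to 0.37 in limma.

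**Figure D1:**
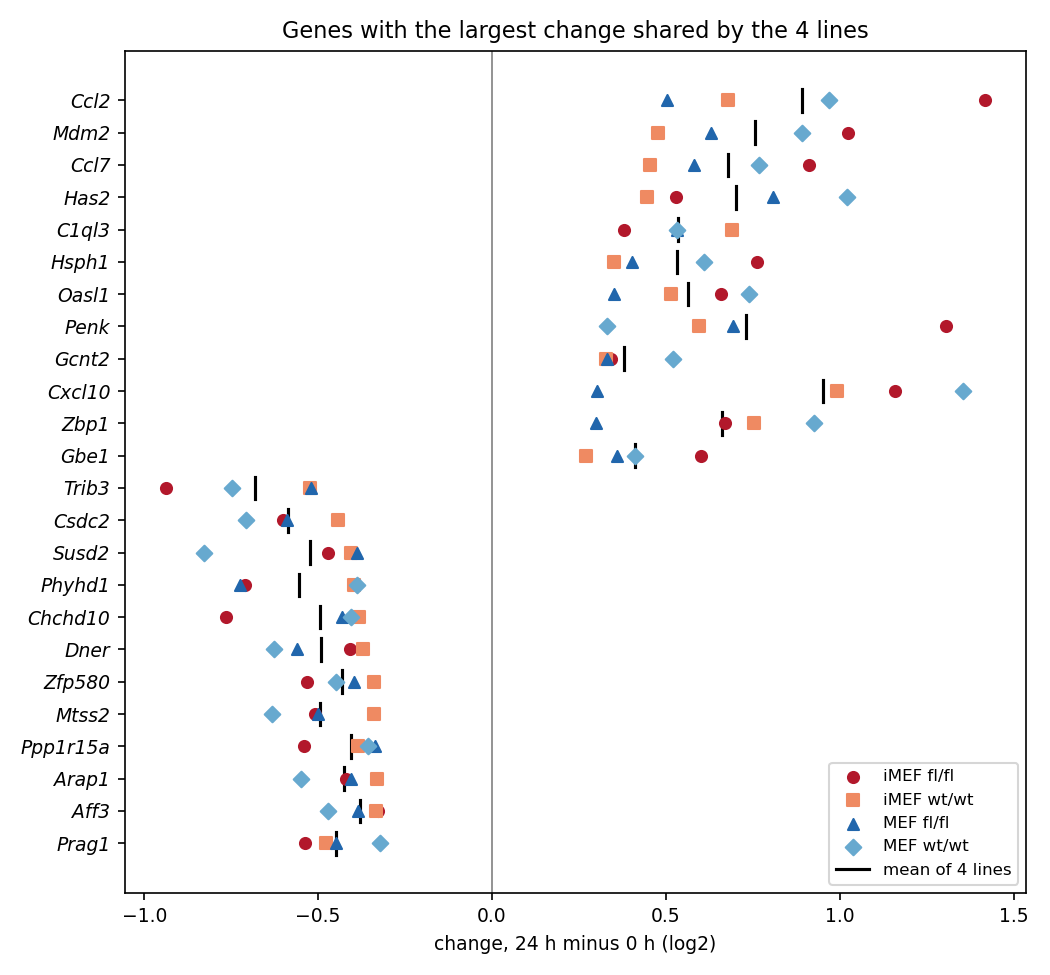
Change from 0 h to 24 h pHT on the log2 scale (x axis) in each of the 4 lines (points) and their mean (black tick) for the 12 genes with the largest increase shared by all lines and the 12 with the largest shared decrease. Ccl2 spans 0.50 to 1.42 and Trib3 spans -0.94 to -0.52, and the Ubf fl/fl MEFs (dark blue) have the smallest increase of Cxcl10 and Zbp1.

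Ccl2 encodes the chemokine that attracts monocytes. It moved from 8.60 to 10.02 in Ubf fl/fl iMEFs, from 9.05 to 9.73 in Ubf wt/wt iMEFs, from 11.25 to 11.75 in Ubf fl/fl MEFs and from 11.05 to 12.02 in Ubf wt/wt MEFs. Primary cells thus held more Ccl2 RNA at 0 h than either immortalized line held at 24 h. The mean change was 0.89 ± 0.14 (SE, n = 4 lines), or 1.86-fold, with an adjusted p of 0.37 in limma. Ccl7, a neighbouring gene that encodes a second monocyte chemokine, followed the same course. It went from 8.52 to 9.43 and from 9.44 to 9.89 in the fl/fl and wt/wt iMEFs, and from 11.13 to 11.72 and from 11.24 to 12.01 in the fl/fl and wt/wt MEFs. Its mean change was 0.68 ± 0.10 (SE, n = 4 lines), or 1.60-fold.

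Both chemokine genes were higher again at 48 h pHT in every line. Ccl2 stood then at 11.33 and 11.22 in the fl/fl and wt/wt iMEFs and at 12.59 and 12.25 in the fl/fl and wt/wt MEFs. In both iMEF lines the level at 96 h had come back to 10.38 and 10.09, still above 0 h, while in MEFs it remained at 12.65 and 12.33.

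Cxcl10, an interferon-inducible chemokine, went from 10.86 to 12.02 in Ubf fl/fl iMEFs, from 11.46 to 12.45 in Ubf wt/wt iMEFs, from 11.05 to 11.35 in Ubf fl/fl MEFs and from 9.61 to 10.96 in Ubf wt/wt MEFs. The increase in Ubf fl/fl MEFs, 0.30, lay apart from the 0.99 to 1.35 of the other 3 lines. Its mean change was 0.95 ± 0.16 (SE, n = 4 lines), or 1.93-fold. All 4 lines had their highest Cxcl10 level at 48 h, between 12.17 and 13.55.

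The list of NF-kB targets and chemokines had 32 members measured. Of these, 10 were higher in all 4 lines, or 31.2% against 7.15% of all genes, and 2 were lower in all 4, or 6.25% against 15.2%. Without Ubf fl/fl MEFs 6 members were lower in the other 3 lines and without Ubf wt/wt MEFs 4, where 3826 and 2663 of all 14848 genes were. Higher in the other 3 were 12 and 11 members, where 2023 and 1453 of all genes were. The median change of the list was -0.01 in Ubf fl/fl iMEFs, 0.03 in Ubf wt/wt iMEFs, 0.19 in Ubf fl/fl MEFs and 0.27 in Ubf wt/wt MEFs. Ptgs2, the inducible cyclooxygenase of prostaglandin synthesis, was 0.19 to 0.76 higher, and Ccl5, a chemokine for T cells, 0.23 to 0.77 higher. The inhibitor gene Nfkbia, which NF-kB itself induces, differed by -0.16 to 0.17 and the p65 subunit gene Rela by -0.32 to 0.16. The fractalkine gene Cx3cl1 and Tnf, the tumour necrosis factor gene, were the 2 members lower in every line, Cx3cl1, with changes of -0.54 to -0.21 and Tnf of -0.58 to -0.06.

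Mdm2 encodes the ubiquitin ligase that degrades p53, and p53 in turn activates Mdm2. It moved from 7.93 to 8.96 in Ubf fl/fl iMEFs, from 7.82 to 8.30 in Ubf wt/wt iMEFs, from 9.92 to 10.55 in Ubf fl/fl MEFs and from 9.56 to 10.46 in Ubf wt/wt MEFs. At both times every MEF array was above every iMEF array. The mean change was 0.76 ± 0.11 (SE, n = 4 lines), or 1.69-fold, and the change in iMEFs minus that in MEFs was -0.01 ± 0.24 (SE, 2 lines against 2, adjusted p = 1 in limma). At 48 h Mdm2 stood at 11.44 and 10.80 in the fl/fl and wt/wt MEFs and at 8.45 and 8.91 in the fl/fl and wt/wt iMEFs, so that it was higher than at 24 h in 3 lines and lower in Ubf fl/fl iMEFs.

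Of 30 p53 targets measured, 9 were higher in all 4 lines (30% against 7.15% of all genes) and 3 were lower in all 4 (10% against 15.2%). Without Ubf wt/wt iMEFs 16 were higher in the other 3 lines, where 2179 of all 14848 genes were, and without Ubf fl/fl MEFs 7 were lower, where 3826 of all genes were. The medians by line were 0.04 and -0.02 in the fl/fl and wt/wt iMEFs and 0.18 and 0.14 in the fl/fl and wt/wt MEFs. Ccng1, the cyclin G1 gene, was higher by 0.07 to 0.63. Rrm2b, which encodes the p53-induced subunit of ribonucleotide reductase, was higher by 0.17 to 0.55. Polk, the gene of a DNA polymerase that copies past lesions, was higher by 0.12 to 0.61, and the nuclease gene Aen by 0.12 to 0.34. Other targets went the other way. Gadd45a, a growth arrest gene, was lower in every line, with changes of -0.48 to -0.22, as was the kinase gene Plk3, at -0.41 to -0.12. Pmaip1 and Bbc3, which encode the cell death proteins Noxa and Puma, differed by -0.04 to 0.16 and by -0.36 to 0.18. Cdkn1a, the p21 gene, and Bax were not analysed here.

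Interferon-stimulated genes are switched on by the factor ISGF3, which reads short runs of GAAA or TTTC in their promoters. In 3 lines the 36 measured members were mostly higher at 24 h. The list's median change was 0.79 in Ubf fl/fl iMEFs, 0.37 in Ubf wt/wt iMEFs and 0.54 in Ubf wt/wt MEFs, and -0.13 in Ubf fl/fl MEFs, against medians of -0.05, -0.03, -0.05 and -0.01 over all genes in the same lines. In the same order 35, 32, 31 and 8 of the 36 members were higher. Over all 4 lines 7 members were higher in each (19.4% against 7.15% of all genes) and 0 were lower in each (against 15.2%). Without Ubf fl/fl MEFs 29 were higher in the remaining 3 lines, where the count for all genes was 2023 of 14848.

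Promoters of this list are shown because its members shared a course in 3 lines. The letters GAAA, 2 bases of any kind and again GAAA, searched on both strands from 250 bases before to 50 bases after the start of transcription (RefSeq, GRCm38.p6), were in 12 of the 25 promoters found for the list (48%) and in 2.89% of the 11732 promoters found for the genes kept. The same letters were in the promoter of Cxcl10. Part of each promoter upstream of the start is given 5′ to 3′ on the gene's strand, with the matching letters in capitals.
Cxcl10, chr5:92349048-92349127, minus strand: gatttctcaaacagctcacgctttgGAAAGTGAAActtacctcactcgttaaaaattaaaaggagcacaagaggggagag
Rsad2, chr12:26456518-26456597, minus strand: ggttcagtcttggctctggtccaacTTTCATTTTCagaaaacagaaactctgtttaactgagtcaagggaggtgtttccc
Ifit1, chr19:34640760-34640839, plus strand: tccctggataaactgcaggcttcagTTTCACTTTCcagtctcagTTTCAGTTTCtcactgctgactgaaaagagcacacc
Trim30a, chr7:104465194-104465273, minus strand: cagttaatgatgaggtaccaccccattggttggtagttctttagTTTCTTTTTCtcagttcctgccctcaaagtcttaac
The match is a description of letters. The promoter of Oasl1, for one, does not hold them in this window.

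Rsad2, the gene of the antiviral enzyme viperin, differed by 1.30, 1.19, 0.26 and 0.84 in fl/fl iMEFs, wt/wt iMEFs, fl/fl MEFs and wt/wt MEFs. Ifit1, whose product binds viral RNA caps, differed by 2.22, 0.90, -0.31 and 1.44 in the same order, and its relative Ifit3 by 2.15, 1.12, -0.04 and 1.02. For each of the 3 genes the change was lowest in Ubf fl/fl MEFs. Trim30a, a ubiquitin ligase gene of the mouse interferon response, was lower at 24 h in that line alone among the 4. It went from 10.07 to 9.63 in Ubf fl/fl MEFs, while it went from 6.59 to 7.55 in Ubf fl/fl iMEFs, from 8.20 to 9.26 in Ubf wt/wt iMEFs and from 7.19 to 8.32 in Ubf wt/wt MEFs. Ubf fl/fl MEFs thus had the highest level of Trim30a at 0 h, higher than any other line had at 24 h. Iigp1, an interferon-inducible GTPase gene, was at 7.4999 in this line at 0 h and at 7.29 at 24 h. In the other lines it went from 5.12 to 6.18, from 5.12 to 6.37 and from 5.86 to 7.004.

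Oasl1 and Zbp1 were the interferon-stimulated genes among the 12 largest shared increases, beside Cxcl10. Oasl1, a gene of the oligoadenylate synthetase family, went from 9.60 to 10.26 in Ubf fl/fl iMEFs, from 10.61 to 11.12 in Ubf wt/wt iMEFs, from 8.91 to 9.26 in Ubf fl/fl MEFs and from 8.17 to 8.91 in Ubf wt/wt MEFs. Zbp1, which encodes a sensor of nucleic acids in the Z form, went from 7.69 to 8.36, from 9.53 to 10.29, from 8.61 to 8.91 and from 7.71 to 8.64 in the same order. By 48 h Zbp1 had reached 12.03 and 11.87 in the fl/fl and wt/wt iMEFs and 10.88 and 10.71 in the fl/fl and wt/wt MEFs, so that all 4 lines, Ubf fl/fl MEFs included, stood well above 0 h on the second day. The median level of the list went the same way, from 9.24 at 24 h to 10.25 at 48 h in Ubf fl/fl MEFs and from 9.12 to 11.27 in Ubf fl/fl iMEFs.

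**Figure D2:**
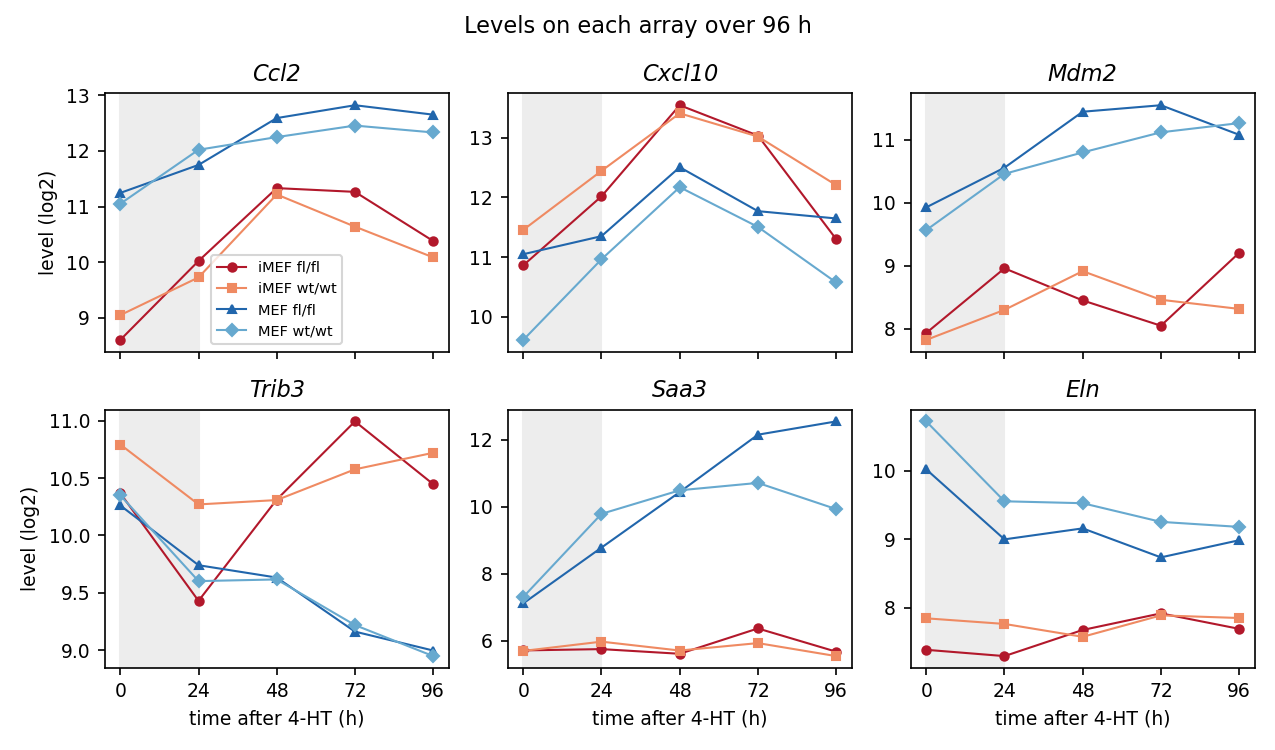
Levels on the log2 scale (y axis) on every array from 0 h to 96 h pHT (x axis) of 6 genes in the 4 lines, 1 array per point, with the first day shaded. Ccl2 and Cxcl10 are higher at 24 h than at 0 h in all 4 lines and higher again at 48 h, and Trib3 is lower at 24 h in all 4. Saa3 and Eln move in the 2 primary lines while the iMEF lines change by -0.09 to 0.28 (Saa3 below the low-value filter there).

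Genes of the integrated stress response, which the factor ATF4 switches on when amino acids run short or the endoplasmic reticulum is stressed, were the list with the largest share of members lower in every line among the protein-coding lists. Of 33 measured, 20 were lower in all 4 lines, or 60.6% against 15.2% of all genes, and 1 was higher in all 4, the mTOR inhibitor gene Ddit4. The medians were -0.13, -0.09, -0.18 and -0.20 in fl/fl iMEFs, wt/wt iMEFs, fl/fl MEFs and wt/wt MEFs. With 1 line left out 21, 22, 21 and 21 members were lower in the other 3 (without fl/fl iMEFs, wt/wt iMEFs, fl/fl MEFs and wt/wt MEFs), where 2951, 3525, 3826 and 2663 of all 14848 genes were.

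Trib3, a pseudokinase gene that ATF4 and its partner CHOP induce, went from 10.37 to 9.43 in Ubf fl/fl iMEFs, from 10.79 to 10.27 in Ubf wt/wt iMEFs, from 10.26 to 9.74 in Ubf fl/fl MEFs and from 10.35 to 9.60 in Ubf wt/wt MEFs. The mean change was -0.68 ± 0.10 (SE, n = 4 lines), with an adjusted p of 0.369 in limma. Afterwards the cell types parted. In MEFs Trib3 went on down to 8.997 and 8.95 at 96 h in the fl/fl and wt/wt lines, whereas in iMEFs it was back at 10.45 and 10.72. Chac1, which encodes an enzyme that degrades glutathione, was lower, with changes of -0.46 to -0.19. Psph, of serine synthesis, was lower at -0.48 to -0.24 and the amino acid transporter gene Slc7a3 at -0.89 to -0.21. Ddit3, the gene of CHOP, was lower, with changes of -0.38 to -0.10, and Ppp1r15a, which encodes the GADD34 subunit that reverses the block on translation, with changes of -0.54 to -0.34. Asns, of asparagine synthesis, differed by -0.21 to -0.04 and Atf4 itself by -0.22 to -0.04. The tRNA synthetase gene Nars was higher in 3 lines and lower in Ubf fl/fl MEFs, from -0.15 to 0.51.

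The letters TGATGNAA, which make up the core that ATF4 reads with its C/EBP partners, were in 9 of the 27 promoters found for this list (33.3%) and in 2.28% of those of all genes kept. Chac1 and Asns are given as members with a match upstream of the start.
Chac1, chr2:119351024-119351103, plus strand: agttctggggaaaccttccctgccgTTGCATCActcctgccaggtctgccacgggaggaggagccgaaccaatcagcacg
Asns, chr6:7693210-7693289, minus strand: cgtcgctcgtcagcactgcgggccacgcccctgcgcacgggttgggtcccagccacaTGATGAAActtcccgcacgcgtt
Trib3 is one of the 9, but its match does not lie wholly upstream of the start, and Ddit3 holds none in this window.

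Among the other genes with a large shared decrease, Csdc2, an RNA-binding protein gene, went from 9.22 to 8.62 in Ubf fl/fl iMEFs, from 9.15 to 8.70 in Ubf wt/wt iMEFs, from 8.21 to 7.62 in Ubf fl/fl MEFs and from 8.42 to 7.71 in Ubf wt/wt MEFs. The 4 changes lay between -0.71 and -0.44, and the mean was -0.59 ± 0.08 (SE, n = 4 lines). Chchd10, a mitochondrial protein gene, was lower, with changes of -0.76 to -0.38, as was Dner, which encodes a membrane protein that binds Notch, at -0.63 to -0.37. Zfp580, Mtss2, Arap1, Aff3, Prag1, Susd2 and Phyhd1 were lower, with changes between -0.83 and -0.32 in single lines. Among the shared increases, Penk, which encodes the precursor of enkephalin peptides, was higher by 0.33 to 1.30, and Hsph1, a cytosolic chaperone gene of the heat shock response, by 0.35 to 0.76. The branching enzyme of glycogen synthesis, Gbe1, was higher by 0.27 to 0.60, and Gcnt2, a glycosyltransferase gene, by 0.33 to 0.52. C1ql3 was higher by 0.38 to 0.69, but its iMEF levels of 5.67 to 6.36 were near or below the low-value filter of 6.17 to 6.39.

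Has2 encodes the enzyme that makes most hyaluronan in fibroblasts. Its level went from 5.74 to 6.27 and from 6.12 to 6.57 in the fl/fl and wt/wt iMEFs and from 7.94 to 8.75 and from 7.93 to 8.95 in the fl/fl and wt/wt MEFs, with a mean change of 0.70 ± 0.11 (SE, n = 4 lines). It passed the low-value filter on 6 of the 8 arrays, so its level in iMEFs was near that of unexpressed genes.

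The microRNA gene Mir382 was the one small RNA gene with a decrease of at least 0.5 in each line. It went from 5.12 to 4.29 in Ubf fl/fl iMEFs, from 8.81 to 8.23 in Ubf wt/wt iMEFs, from 8.28 to 7.63 in Ubf fl/fl MEFs and from 8.37 to 7.63 in Ubf wt/wt MEFs, a mean of -0.70 ± 0.08 (SE, n = 4 lines, adjusted p = 0.369 in limma). The level in Ubf fl/fl iMEFs was below the filter at both times. Mir134 lies next to it on chromosome 12, in the imprinted Dlk1-Dio3 region, and was lower, with changes of -0.89 to -0.29. The array's probe sets lie on the precursors and the mature forms were not measured. The mature sequences (RefSeq, GRCm38.p6) are given with the seed, bases 2 to 8, in capitals, to show that the 2 genes do not share one.
miR-382-5p, chr12:109733781-109733802: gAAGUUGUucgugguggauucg
miR-134-5p, chr12:109734145-109734166: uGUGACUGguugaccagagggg
Of 108 microRNA precursors measured 24 were lower in all 4 lines (22.2% against 15.2% of all genes) and 1 was higher. Without Ubf wt/wt iMEFs or Ubf fl/fl MEFs 43 or 37 were lower in the other 3, where 3525 or 3826 of all 14848 genes were. Of 46 snoRNAs, grouped by RefSeq type, 28 were lower in all 4 (60.9% against 15.2% of all genes) and 0 higher (against 7.15%). Their medians were -0.9997 and -0.68 in the fl/fl and wt/wt iMEFs and -0.12 and -0.18 in the fl/fl and wt/wt MEFs. The snoRNA host gene Gas5 differed by -0.88, -0.91, -0.17 and -0.14 in the same order on the probe set used, but its 4 probe sets disagreed, with mean changes from -0.52 to 0.24.

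Cell cycle genes were higher in part of the lines. Of 72 genes of mitosis and cytokinesis 23 were higher in all 4 lines (31.9% against 7.15% of all genes) and 1 was lower in all 4. The medians were 0.40 in Ubf fl/fl iMEFs, 0.01 in Ubf wt/wt iMEFs, 0.11 in Ubf fl/fl MEFs and 0.25 in Ubf wt/wt MEFs. Prc1, which bundles microtubules of the spindle midzone, was higher by 1.01, 0.37, 0.25 and 0.56 in that order, and Aspm, of the spindle poles, by 0.80, 0.36, 0.24 and 0.44. The spindle motor gene Kif11 was higher by 1.93, 0.53, 0.11 and 0.76. Bub1, a kinase gene of the spindle checkpoint, went 2 ways, with 1.89 and -0.78 in the fl/fl and wt/wt iMEFs and 0.12 and 0.67 in the fl/fl and wt/wt MEFs. Cdc20 and Plk1 differed by -0.09 to 0.26 and by -0.14 to 0.15. On the second day the list parted by cell type. Its median level went from 9.53 at 24 h to 7.66 at 48 h in Ubf fl/fl MEFs and from 9.23 to 7.75 in Ubf wt/wt MEFs, so the first day preceded a lower level of mitotic genes in primary cells of both genotypes.

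The letters TTTGAA, the CHR element of many mitotic promoters, were in 70.7% of the 58 promoters found for this list and in 11.8% of those of all genes, and those of the CCAAT box in 72.4% against 37.5%. In the 12 shared increases the CHR letters were in 2 of 7 promoters found (28.6%) and in the 12 shared decreases in 1 of 9 (11.1%). Those of the CCAAT box were in 4 of the 7 (57.1%) and in 0 of the 9. The interferon letters were in 1 promoter of each group, and the ATF4 letters in 0 of the 7 and 2 of the 9. The rest of the letters searched were the E2F core (GCGGGA), the E-box (CACGTG), the TEAD site (CATTCC), the AP-1 site (TGACTCA) and the CRE core (TGACGTC). They were in 1, 1, 0, 1 and 0 promoters of the shared increases and in 3, 2, 1, 0 and 1 of the shared decreases. Their shares over all genes were 33.7%, 9.69%, 12.3%, 3.83% and 5.11%. Groups of 7 and 9 promoters are too small to set against those shares.

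Core and linker histone genes, whose messages are mostly not polyadenylated and peak in S phase, were lower in part. Of 22 measured 10 were lower in all 4 lines (45.5% against 15.2%) and 0 higher, with medians of -0.42, -0.22, -0.02 and -0.24 in fl/fl iMEFs, wt/wt iMEFs, fl/fl MEFs and wt/wt MEFs. H2ac4, the member with the smallest p, differed by -0.84, -1.32, -0.12 and -0.58. Histone genes resemble each other closely and their probe sets can share signal, so they do not count as independent measurements. In Ubf fl/fl MEFs 9 of the 22 were higher, and without that line 16 were lower in the other 3, where 3826 of all 14848 genes were. Genes of DNA replication had a smaller median, at 0.20, -0.03, 0.03 and 0.07, with 9 of 64 higher in all lines (14.1% against 7.15%). Without Ubf wt/wt iMEFs 20 of 64 were higher in the other 3, where 2179 of all 14848 genes were.

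Genes of glycolysis and the hypoxia response were higher in each line in 13 of 32 cases (40.6% against 7.15%), with medians of 0.20, 0.04, 0.16 and 0.08. Bnip3, which HIF-1 induces and which directs mitochondria to degradation, was higher by 0.46, 0.06, 0.64 and 0.90. Of 16 growth arrest genes of quiescent fibroblasts 7 were lower in all lines (43.8% against 15.2%), among them Txnip, a thioredoxin inhibitor gene, with changes of -0.56 to -0.21. Of 16 Id and BMP response genes 7 were lower in all lines (43.8% against 15.2%), among them the inhibitory Smad gene Smad6, with changes of -0.46 to -0.18. The BMP antagonist gene Grem1 was higher by 0.04 to 0.86. Metallothionein Mt2 was higher by 1.13 and 0.70 in the fl/fl and wt/wt iMEFs and by 0.23 in each MEF line. Immediate early genes, which serum induces within the first hours, were lower in all lines in 6 of 28 cases (21.4% against 15.2%). With Ubf fl/fl MEFs left out, 12 of 28 were lower in every remaining line, where 3826 of all 14848 genes were. Ier2 was lower, with changes of -0.49 to -0.15. Oestrogen response genes, searched because 4-HT binds oestrogen receptors, gave 2 of 13 higher in all lines and 2 of 13 lower. These shares were 15.4% each, against 7.15% and 15.2% of all genes, and the median was -0.02. Ubtf, the gene of UBF, had a mean change of -0.00 ± 0.09 (SE, n = 4 lines), from 10.43 to 10.62 and from 10.65 to 10.55 in the floxed iMEFs and MEFs. The probe set covers the whole transcript and not only the floxed exons, so it does not check their excision.

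**Figure D3:**
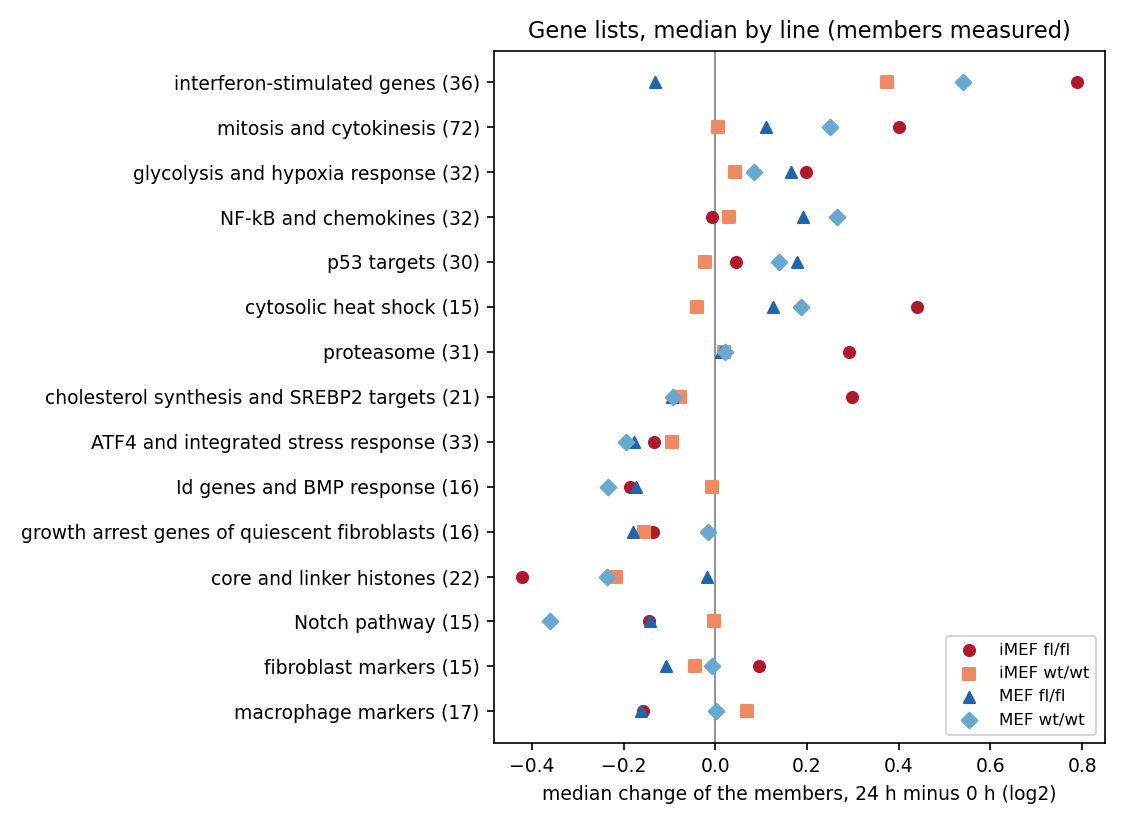
Median change from 0 h to 24 h pHT on the log2 scale (x axis) of 15 gene lists in each of the 4 lines (points), with the number of members measured in brackets. Interferon-stimulated genes lie at 0.37 to 0.79 in 3 lines and at -0.13 in Ubf fl/fl MEFs, and the ATF4 list lies below 0 in all 4.

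The 4 lines did not contribute alike. Ubf fl/fl iMEFs had 2040 genes with a change of at least 0.5 in size (13.7%), Ubf wt/wt MEFs 766 (5.16%), Ubf wt/wt iMEFs 552 (3.72%) and Ubf fl/fl MEFs 234 (1.58%). For a change of at least 1 in size the counts were 432 (2.91%), 40 (0.269%), 33 (0.222%) and 14 (0.0943%) in that order. Of the 2040 in Ubf fl/fl iMEFs 1661 were higher. Across 14848 genes, which are not independent replicates, the changes in Ubf fl/fl iMEFs and in Ubf wt/wt MEFs had a correlation of r = 0.637 (Spearman's rho = 0.613), 2 lines that share neither genotype nor cell type, while the other 5 pairs of lines lay between 0.0273 and 0.175. Each line has its own 0 h array, so no array is shared between lines. The same 2 lines showed a relation between change and gene length. With 14143 protein-coding genes split in 5 by genomic span, from the shortest (up to 7.02 kb) to the longest (from 67.5 kb), the median change went from -0.16 to 0.09 in Ubf fl/fl iMEFs and from -0.12 to 0.02 in Ubf wt/wt MEFs. In Ubf wt/wt iMEFs it stayed between -0.05 and -0.01 and in Ubf fl/fl MEFs between -0.01 and 0.00. The part that this pattern has in the results on mitotic, heat shock, proteasome and interferon genes, whose changes were largest in Ubf fl/fl iMEFs, was not tested. Without Ubf fl/fl iMEFs 24 of 72 mitotic genes were higher in the other 3 lines, where 1568 of all 14848 genes were, and without Ubf wt/wt iMEFs 41 were, where 2179 of all genes were.

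**Figure D4:**
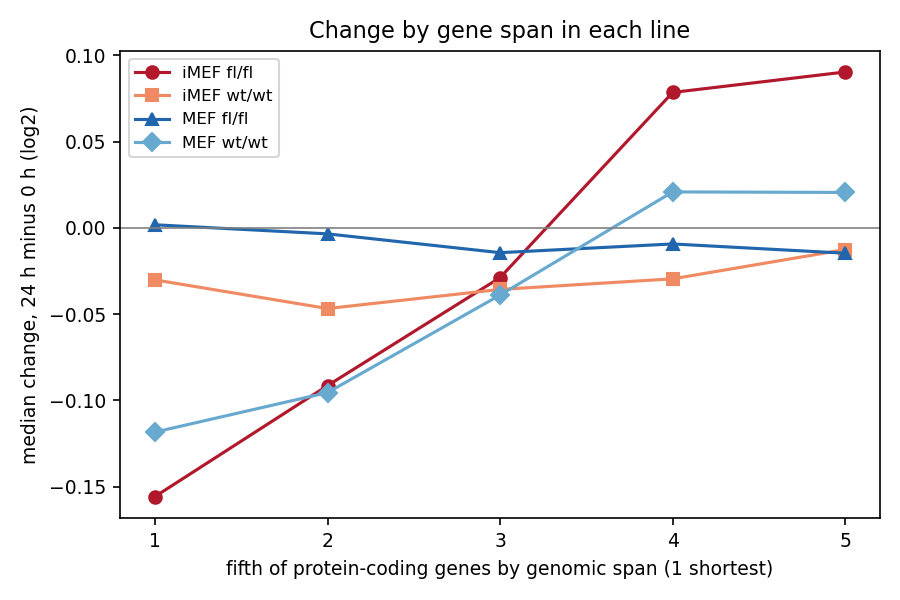
Median change from 0 h to 24 h pHT on the log2 scale (y axis) of protein-coding genes in 5 groups by genomic span (x axis, 1 shortest to 5 longest), 1 line for each cell line. It goes up with span in Ubf fl/fl iMEFs, from -0.16 to 0.09, and in Ubf wt/wt MEFs, from -0.12 to 0.02, and stays within -0.05 to 0.00 in the other 2 lines.

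A line was said to depart where its change differed by at least 1 from the mean of the other 3 lines while those 3 lay within 0.5 of each other. With 1 array per line and time this is a description with no test, and where a line lies at or below the filter of 6.17 to 6.39 its change is partly background. Ubf fl/fl iMEFs departed for 78 genes (0.525%), 74 of them higher. The 4 largest were Emc2, Hsp90b1, Cetn2 and Epc2. Hsp90b1, the chaperone GRP94 of the endoplasmic reticulum, went from 8.64 to 10.68 in this line and differed by 0.39, 0.01 and 0.44 in the others, and Emc2, of the membrane insertion complex, went from 8.59 to 10.77 against changes of 0.26, -0.12 and 0.35. At 0 h Hsp90b1 stood at 8.27 to 8.64 in iMEFs and 11.44 to 12.10 in MEFs, and Emc2 at 8.13 to 8.59 and 11.10 to 11.53. Cetn2, a centriole gene, and Epc2, of a chromatin complex, differed by 1.56 and 1.42 in Ubf fl/fl iMEFs and by -0.27 to 0.21 elsewhere.

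Ubf wt/wt iMEFs departed for 20 genes (0.135%), 10 higher and 10 lower. The macrophage genes C1qa and Cx3cr1 were among the 10 higher. Of the 17 macrophage markers measured, 9 were higher in this line, where 6571 of all 14848 genes were, with a median change of 0.07. C1qb went from 6.27 to 5.77 in this line and C1qc from 6.40 to 6.60, both near or below the filter. C1qa went from 6.56 to 7.39 in this line and down in the other 3, from 7.08 to 6.59, from 9.41 to 8.66 and from 9.84 to 9.10. Cx3cr1, the fractalkine receptor gene, differed by 0.69 against -0.60 to -0.54. Pgm5, a cytoskeletal protein gene that went from 5.69 to 6.47 across the filter, differed by 0.79 against -0.83 to -0.67, and Spats2l by 1.12 against -0.28 to 0.12. The lipase gene Pla2g7 was lower, with a change of -0.81, where the others were higher by 0.38 to 0.64 and where its level went from 6.22 to 5.41, at or below the filter, and Glrx3, a glutaredoxin gene, had -1.04 against 0.03 to 0.45. Ubf fl/fl MEFs departed for 10 genes, all lower (0.0673%), led by Trim30a and Iigp1 and followed by Cxcl15 and Olfml1. Ubf wt/wt MEFs departed for 5, all higher (0.0337%), among them Nt5e, the CD73 gene, at 0.74 against -0.43 to -0.24, the adhesion gene Chl1 at 1.44 against -0.03 to 0.39, and Csgalnact1, of chondroitin sulfate synthesis, at 1.31 against -0.03 to 0.32. In iMEFs Chl1 lay at 5.53 to 5.93, Csgalnact1 at 5.96 to 6.28 and Cxcl15 at 4.87 to 5.25 at 0 h and 24 h, near or below the filter. For these genes only the comparison of the MEF lines with each other rests on measured levels.

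Whether the first day differed between immortalized and primary cells was tested as an interaction in limma. No gene passed (0%), 304 had an unadjusted p under 0.05 (2.05%), and the lowest adjusted p was 0.378. Rny1 and Snord73b had the smallest p, followed by inflammatory and matrix genes. Saa3, an acute phase protein gene of fibroblasts and macrophages, went from 7.12 to 8.78 in Ubf fl/fl MEFs and from 7.31 to 9.79 in Ubf wt/wt MEFs, while in iMEFs it lay between 5.70 and 5.98, below the low-value filter of 6.17 to 6.39, so that it was kept through its MEF arrays and its iMEF changes are not measured ones. Mmp3, which encodes the protease stromelysin, went from 8.01 to 9.41 and from 7.78 to 9.63 in the fl/fl and wt/wt MEFs and differed by 0.18 and 0.19 in iMEFs, where its levels of 5.79 to 6.21 were at or below that filter too. Eln, the elastin gene, went the other way, from 10.02 to 8.9994 and from 10.72 to 9.55 in the fl/fl and wt/wt MEFs, with -0.09 and -0.08 in iMEFs. Inhbb, the gene of an activin subunit, went from 8.10 to 9.21 and from 8.58 to 9.47 in the fl/fl and wt/wt MEFs and differed by -0.04 and -0.19 in iMEFs, where its level at 0 h was as high.

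When both interactions were fitted together, Saa3, Lcn2, the small RNA gene Rny1 and Snord73b passed for the cell type difference, with adjusted p from 0.0104 to 0.0366 in limma, all with lower changes in iMEFs, Saa3 with the limit just given. With trend and robust settings Rny1 and Snord73b passed. Rny1, a Y RNA gene, went from 9.41 to 7.20 and from 10.41 to 8.29 in the fl/fl and wt/wt iMEFs, and from 7.49 to 7.15 and from 7.40 to 7.68 in the fl/fl and wt/wt MEFs.

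A fit to the 2 primary lines was the only fit of the change in which genes passed, with 102 higher (0.687%) and 85 lower (0.572%) at 24 h in limma. With 2 pairs there was 1 residual degree of freedom, and the empirical Bayes step gave every gene 1 common spread, a standard error of 0.144, so that a call amounted to a mean change of at least 0.49 in size. Ubf fl/fl and Ubf wt/wt MEFs serve here as the 2 replicates. Of the 187 genes 89 had the same sign in both iMEF lines, 20 had the opposite sign in both, and 78 were split. The median size was 0.60 in MEFs and, counted in the direction of MEFs, 0.17 in iMEFs. The genes were chosen on the MEF values, so the 2 sizes are a description and no test.

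The largest rises in primary MEFs were those of Saa3, Lcn2 and Mmp3. Saa3 rose by 2.07, or 4.20-fold, with changes of 1.66 and 2.48 in the fl/fl and wt/wt MEFs. Its adjusted p of 3.07e-42 in limma rests on the common standard error of 0.144 and not on the spread of its own 2 changes. Lcn2, the lipocalin that binds bacterial siderophores, rose by 1.80, from 6.80 to 7.97 in Ubf fl/fl MEFs and from 6.53 to 8.96 in Ubf wt/wt MEFs. Mmp3 rose by 1.63 and Serpina3n, a serine protease inhibitor gene, by 1.41. Of 32 members of the NF-kB and chemokine list, against 0.687% of all genes called higher and 0.572% lower, 10 rose (Ccl2, Ccl7, Ccl8, Ccl11, Cxcl5, Cxcl10, Ptgs2, Il1rn, Saa3 and Lcn2) and 1, Tnf, fell. For Ccl8 and Ccl11 the change in both iMEF lines lay between -0.27 and -0.03, with Ccl8 below the filter there. In Ubf fl/fl MEFs Saa3 went on from 8.78 at 24 h to 12.55 at 96 h, and in Ubf wt/wt MEFs from 9.79 to 9.93.

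Of the 15 members of the Notch pathway list 4 fell in primary MEFs, against 0.572% of all genes, and 0 rose. Hey1, a transcriptional repressor that Notch induces, went from 9.84 to 8.33 in Ubf fl/fl MEFs and from 9.28 to 8.32 in Ubf wt/wt MEFs. Its mean change was -1.23, with an adjusted p of 3.18e-14 in limma that again rests on the common standard error of 0.144. Hey2 went from 7.85 to 6.501 and from 7.46 to 6.74, Heyl from 7.82 to 7.26 and from 7.64 to 7.13, and Nrarp, a feedback inhibitor of Notch, from 7.36 to 6.63 and from 7.64 to 7.01. In iMEFs these genes differed by between -0.44 and 0.01.

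Matrix genes split. Eln fell by 1.09, Fmod, the gene of the collagen-binding proteoglycan fibromodulin, fell by 0.73 and Ogn, the osteoglycin gene, fell by 0.68, while Has2 rose by 0.91. Ogn had a change of 2.56 in Ubf fl/fl iMEFs. The BMP and activin antagonist genes Grem1 and Fst rose by 0.86 and 0.92, and Inhbb by 0.997. From the interferon list Ifit1, Oasl1, Rsad2, Zbp1 and Parp14 rose, 5 of 36, although Ifit1 and Parp14 differed by -0.31 and -0.02 in Ubf fl/fl MEFs, so that the call came from Ubf wt/wt MEFs at 1.44 and 1.07. Mdm2 and Eda2r rose among 30 p53 targets, Trib3, Slc7a3 and Pck2 fell among 33 members of the ATF4 list, and Cenpe, Nuf2 and Spc25 rose among 72 mitotic genes, beside 0.687% of all genes called higher and 0.572% lower. C1qa, C1qb and C1qc fell, 3 of 17 macrophage markers, with changes of -0.74, -0.52 and -0.51, while 0 of 15 fibroblast markers were called. In bulk RNA fewer cells of a type and less RNA per cell cannot be told apart. Whether macrophage content moved with the chemokine genes was not tested. The 3 complement genes do not stand for the macrophage list, whose median change was -0.16 in Ubf fl/fl MEFs and 0.00 in Ubf wt/wt MEFs. Of its 17 members 5 and 9 were higher in the fl/fl and wt/wt MEFs, where 7143 and 6137 of all 14848 genes were.

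**Figure D5:**
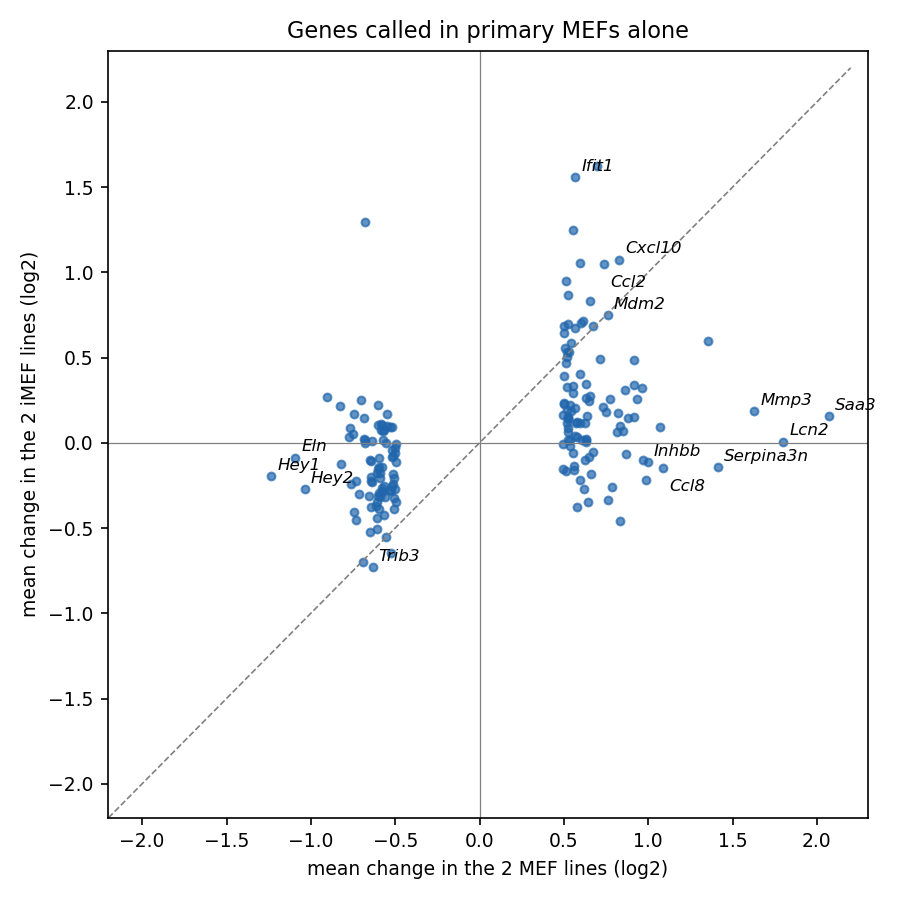
Mean change from 0 h to 24 h pHT on the log2 scale in the 2 MEF lines (x axis) against the mean in the 2 iMEF lines (y axis) for the 187 genes called in MEFs alone, with the line of equal change dashed. Saa3, Lcn2 and Mmp3 lie far to the right at 1.63 to 2.07 in MEFs with iMEF means near 0 (Saa3 and Mmp3 at or below the low-value filter there), whereas Ccl2, Cxcl10 and Mdm2 lie near the line of equal change.

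Whether the first day differed between the genotypes was tested in the same way, since the floxed exons are cut in floxed cells by 24 h according to the methods. No gene passed (0%), and 114 had an unadjusted p under 0.05 (0.768%). The 8 genes with the smallest p each had a lower change in floxed than in wild-type cells. Clca3a1, of the calcium-activated chloride channel regulators, differed by -0.76 and -0.68 in the floxed iMEFs and MEFs and by 0.32 and 0.21 in the wild-type ones, but its iMEF levels of 4.98 to 5.79 were below the filter, so only the MEF values are measured ones. Plag1, a growth regulating transcription factor gene, differed by -0.57 and -0.34 against 0.39 and 0.59. For Ms4a6d and Clec12a, which macrophages express, the change in floxed minus that in wild-type cells was -0.85 and -0.81. For Gbp9 and Trim30d, of the interferon response, this difference was -0.99 and -1.17. Gbp9 went from 6.25 to 6.26 and from 7.10 to 6.67 in the floxed iMEFs and MEFs. In the wild-type iMEFs and MEFs it went from 5.88 to 6.71 and from 6.02 to 6.75. All of these had an adjusted p of 1 in limma. For Ms4a6d, Clec12a, Gbp9 and Trim30d the iMEF arrays lay between 3.96 and 6.71, near or below the low-value filter of 6.17 to 6.39.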

How the data were processed

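Expression was measured on 20 arrays, of which 8 (0 h and 24 h, 4 lines) were compared. Affymetrix Power Tools 1.14.4 was used by the authors to normalize the arrays together (RMA-sketch), and the deposited table holds these log2 values. Mouse Gene 2.0 ST is the array in the methods, but the annotation used here to name probe sets belongs to the 1.0 ST design. Of 35556 probe sets 21789 have 1 symbol, 1621 several and 12146 are not listed. Gene identifiers of 21698 were found in the RefSeq table (GRCm38.p6). Where a gene had several, the brightest on average was taken, which left 19938 genes, and 14848 were kept that lay over the 40th percentile of the array on at least 2 of the 8.

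limma 3.58.1 in R 4.3.3 was fitted with a term for each line (3 residual degrees of freedom plus a prior of 4.95, median standard error 0.094), and each interaction with 2. Groups came from the labels, and the pairing is by cell line. Nothing says that cultures were independent, so p-values measure the spread between lines. The adjusted threshold was 0.05. The tests were tried on simulated data. Alternatives were other scalings, filters, probe set choices, subsets of lines and empirical Bayes settings. Plots used matplotlib 3.10.9 under Python 3.11.15.

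The members and the 54 gene lists were chosen with earlier results of these data known. Genes were named by a rule: the 12 largest increases and decreases (filled by the size in the least changed line, without small RNA or predicted genes), up to 2 members per list with the smallest p, up to 4 departing genes per line and direction, 8 per interaction, and Ubtf. Other list members, the genes called in MEFs alone, Mir382, Mir134, Rny1 and Snord73b were named after their values were seen, as were the interferon and ATF4 motifs and the snoRNA and microRNA groups. For promoters the first window listed for a gene was used.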

Additional observations from a re-analysis of the deposited data

Results flagged for a closer look

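For 152 named genes and 54 list medians the 4 line changes were searched for a line far from the other 3 by Dixon's ratio. It picked 17 genes and 2 lists. Chance picks about 1 in 20 groups, and some of these genes had been named for a departing line. Values are the change in the line that stood apart, on the log2 scale.

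In Ubf fl/fl iMEFs the change was 1.53 for Nes, 1.08 for Eif5b, -0.81 for Dbp, -0.76 for Chchd10 and -0.48 for Gadd45a. The median of the cholesterol synthesis list was 0.30 there, against -0.09 to -0.08 in the other lines, and that of the proteasome list 0.29, against 0.01 to 0.02. In Ubf wt/wt iMEFs it was 0.83 for C1qa, 0.69 for Cx3cr1, 0.79 for Pgm5 and -1.08 for Itpr3os. In Ubf fl/fl MEFs it was -0.44 for Trim30a, -0.21 for Iigp1, -0.86 for Olfml1, -0.0707 for Cebpa, -0.0759 for Tgfb1i1 and -0.0111 for Osgin1. In Ubf wt/wt MEFs it was 0.74 for Nt5e and 0.52 for Gcnt2.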

How the results depend on the processing

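In every fit of the shared change other than that of the MEF lines alone (102 higher, 85 lower) limma called 0 genes, under both other scalings, no filter and a stricter one, other probe set choices, all 20 arrays, no line term, each line left out and the other subsets of lines. The lower count for the cell type difference was 2 with trend and robust settings and 4 with both interactions fitted together. Genes changed by at least 0.5 in every line numbered 1 higher and 2 lower. They numbered 10 and 17 at 0.3, 0 and 0 at 1, 1062 and 2258 at any size, 3 and 0 under quantile normalization and, lower, 1 under median scaling. With 1 line left out they ran from 2 to 29 higher, the latter without Ubf fl/fl MEFs, and from 2 to 11 lower, the latter without Ubf wt/wt iMEFs. At a departure of 1.5 the genes of a departing line numbered 6, 2, 0 and 0 in fl/fl iMEFs, wt/wt iMEFs, fl/fl MEFs and wt/wt MEFs. Under median scaling those of Ubf fl/fl MEFs numbered 6, and under quantile normalization those of Ubf wt/wt MEFs 12. The median of all genes moved from -0.02 to -0.03 and -0.01 under the scalings.

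With 1 line left out the list medians that moved by more than the spread between lines ran from -0.0457 to 0.0128 for CDK inhibitors and G1 cyclins (lowest without Ubf fl/fl iMEFs), from -0.034 to 0.0057 for the TGF-beta response (highest without Ubf wt/wt iMEFs, and 0.0043 without Ubf fl/fl MEFs) and from 0.0118 to 0.0947 for metallothioneins (without Ubf fl/fl MEFs and without Ubf wt/wt iMEFs). Ubtf, near 0, turned to 0.0071 under quantile normalization, to 0.1152 in iMEFs alone and to 0.0492 in floxed lines alone, and ran from -0.0692 to 0.0458 with 1 line left out, above 0 without either MEF line. Myog ran from -0.2094 to 0.0106, the latter without Ubf fl/fl iMEFs, and Acaca turned to -0.0078 in MEFs alone. The cause was not tested for any of these. The labels carry no replicate numbers, so the lines were the pairs.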

Other observations

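Probe sets without a gene of their own were left out above. Of 5717 that the annotation does not list and that passed the low-value filter, 2 were at least 0.5 higher in every line and 2 at least 0.5 lower. Of 965 with several symbols, 0 were in either group.

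Among lists not described above, genes of ribosome biogenesis were higher in all 4 lines in 15 of 87 cases (17.2% against 7.15% of all genes). Without Ubf wt/wt iMEFs 33 of 87 were higher in the other 3, where 2179 of all 14848 genes were. The medians were 0.28, -0.07, 0.02 and 0.12 in fl/fl iMEFs, wt/wt iMEFs, fl/fl MEFs and wt/wt MEFs. Gnl2, a nucleolar GTPase gene, was higher by 0.16 to 1.04. Cytoplasmic ribosomal protein genes were higher in all lines in 3 of 54 cases (5.56%) and lower in 4 (7.41%), where 7.15% and 15.2% of all genes were. Of 29 lysosome genes 7 were lower in all lines (24.1% against 15.2% of all genes), among them Gaa, the acid glucosidase gene, by -0.29 to -0.23. Collagen genes were higher in all lines in 2 of 32 cases (6.25% against 7.15%) and lower in 3 (9.38% against 15.2%).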
